A study of Mus musculus with 12 samples.

Results

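The data described here are those of 8 long noncoding host transcripts of small nucleolar RNAs (snoRNAs) in mouse bone marrow whose libraries carry the label WT or KO, the latter for U2af1. The members, Gas5, Snhg1, Snhg3, Snhg5, Snhg6, Snhg8, Snhg12 and Snhg15, were taken by symbol from 24533 genes, and all 8 had a row with a test in both deposited tables. The series holds 12 libraries from C57BL/6 marrow in 4 groups of 3. Marrow depleted of lineage-marked cells on magnetic columns and then sorted by flow cytometry (LinNeg) gave 3 WT and 3 U2af1KO libraries. LSK cells, the lineage-negative fraction with Sca-1 and c-Kit on its surface, gave another 3 and 3, and their source label adds BMT, which is not spelled out. All libraries were made from total RNA after removal of ribosomal RNA. The labels used here name no Cre driver, deleted exon, age or animal, and the p-values then reflect only how far these libraries spread, which can be technical. In bulk RNA, fewer cells of a type and less RNA per cell cannot be told apart.

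A snoRNA host transcript carries snoRNAs in its introns, and splicing frees each intron so that the snoRNA can be trimmed out of it. C/D box snoRNAs guide methylation of ribosomal RNA and H/ACA box snoRNAs guide its pseudouridylation, and a few of both kinds serve in cleavage of the precursor. The spliced exons of noncoding hosts hold only short reading frames, are engaged by ribosomes and are removed by nonsense-mediated decay, a pathway that needs translation. Many such hosts start with a C followed by pyrimidines, the terminal oligopyrimidine (TOP) tract that ribosomal protein messages also carry. U2af1 encodes the small subunit of the factor that binds the AG at the end of an intron.

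The values come from the authors' own comparisons by DESeq2 of KO against WT, 1 table for each population. Each gene has a mean of normalized counts over the 6 libraries, a log2 fold change with its standard error (SE) and a p-value adjusted over the table. A gene is called when that adjusted p is under 0.05. Values per library were not analysed here and their depth is unknown, so means under each label were derived from the deposited mean and fold change, taking 3 libraries on each side. U2af1 itself was higher under the KO label, with a log2 fold change of 0.65 (SE 0.19, adjusted p = 0.00293) in LinNeg and 0.61 (SE 0.06, adjusted p = 1.72e-25) in LSK in the authors' deposited tables. Reads of exons that a deletion might leave in place would enter that value. No value per exon was examined, so the reason for the rise was not tested and the labels were not checked by it. All directions below follow the authors' name for the comparison. Of the markers that define the LSK gate, Kit had an authors' mean of 21655 and Ly6a, which encodes Sca-1, one of 464 in the LSK table. Both fell under the KO label there, with log2 fold changes of -0.98 (SE 0.05) and -0.82 (SE 0.12) in the authors' deposited table. In LinNeg, Ly6a had a mean of 1694 and rose by 2.20 (SE 0.28, adjusted p = 1.31e-13), and Kit had a mean of 1879 and stood at 0.36 (SE 0.16, adjusted p = 0.0572) without a call, in the authors' deposited table. The tables were normalized separately, so their means are not on 1 scale.

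All 8 host transcripts had higher derived means under the KO label in both populations. In LinNeg, 6 of the 8 rose and none fell at the adjusted threshold, beside 22.1% of 17108 tested genes called higher and 41.4% called in either direction. In LSK all 8 rose, beside 32.4% of 16482 tested genes called higher and 61.6% called in either direction. The median log2 fold change of the members was 1.29 in LinNeg and 0.77 in LSK, where the median of all tested genes was 0.16 and 0.04. Every member had an authors' mean of at least 100 in both tables, and among all genes with such means 24.9% were called higher in LinNeg and 40.8% in LSK. Rising in both tables was found for 6 of the 8 members and for 14.1% of the 15735 genes tested in both.

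**Figure D1:**
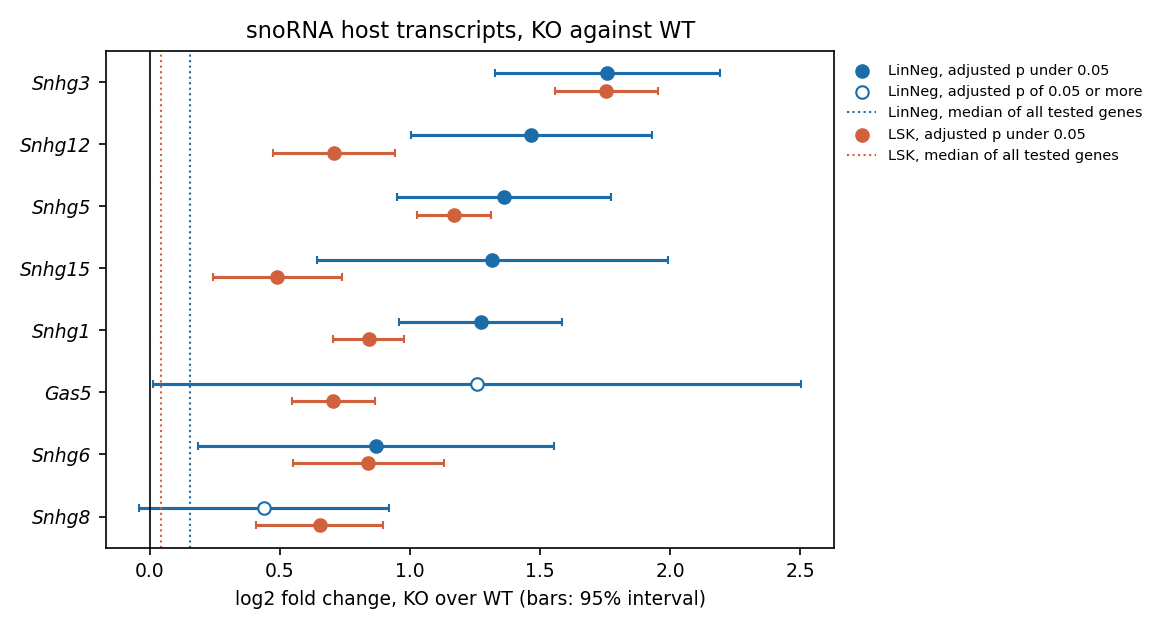
Log2 fold change of KO over WT for each host transcript in LinNeg (blue) and LSK (orange), with bars for the 95% interval, open circles for adjusted p of 0.05 or more and dotted lines at the median of all tested genes. All points lie to the right of 0, and Gas5 in LinNeg has the widest bar, from 0.01 to 2.50.

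Among the hosts of C/D box snoRNAs, Snhg5 and Snhg1 rose in both populations. Snhg5 carries a pair of U50 snoRNAs, which guide methylation of the large-subunit ribosomal RNA. Its derived mean was 905 under WT and 2325 under KO in LinNeg, a log2 fold change of 1.36 (SE 0.21, adjusted p = 1.06e-09) in the authors' deposited table. Within LSK the Snhg5 means were 1212 and 2727, with a log2 fold change of 1.17 (SE 0.07, adjusted p = 1.39e-57) in the authors' deposited table. The difference between these changes was -0.19 (SE 0.22).

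Snhg1 carries the snoRNA U22, which serves in maturation of the small-subunit ribosomal RNA, along with a series of methylation guides. Derived means of Snhg1 were 764 under WT and 1844 under KO in LinNeg, where the authors' deposited table gave 1.27 (SE 0.16, adjusted p = 3.99e-14). Those in LSK were 1284 and 2300, and the authors' deposited table gave 0.84 (SE 0.07, adjusted p = 1.91e-32).

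Snhg6, the host of Snord87, was one of the least abundant members. Its derived mean went from 191 to 349 in LinNeg (log2 fold change 0.87, SE 0.35, adjusted p = 0.0331 in the authors' deposited table). The LSK means of Snhg6 were 238 and 426 (log2 fold change 0.84, SE 0.15, adjusted p = 4.39e-08 in the authors' deposited table). The call in LinNeg ended when fold changes were recentred on the median gene (0.71, adjusted p = 0.0879).

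Gas5 (growth arrest specific 5) carries C/D box snoRNAs in its introns and is also known to bind the glucocorticoid receptor. It had the highest mean of the 8 in both tables. In LSK it rose from a derived 5067 to 8266, a log2 fold change of 0.71 (SE 0.08, adjusted p = 1.93e-17) in the authors' deposited table. Within LinNeg the derived means were 2626 and 6279 and the log2 fold change was 1.26, yet its SE was 0.64 and the adjusted p was 0.1 in the authors' deposited table, so the gene was not called there. That SE was 4.01 times the median of 910 genes with a mean within 0.8 to 1.25 times that of Gas5, and only 5 of them had one as large. The SEs of the other 7 members in LinNeg were between 0.839 and 1.16 times the median of genes of like mean. In LSK the SE of Gas5 was 1.41 times that median. Which libraries carry the spread of Gas5 in LinNeg was not tested.

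**Figure D2:**
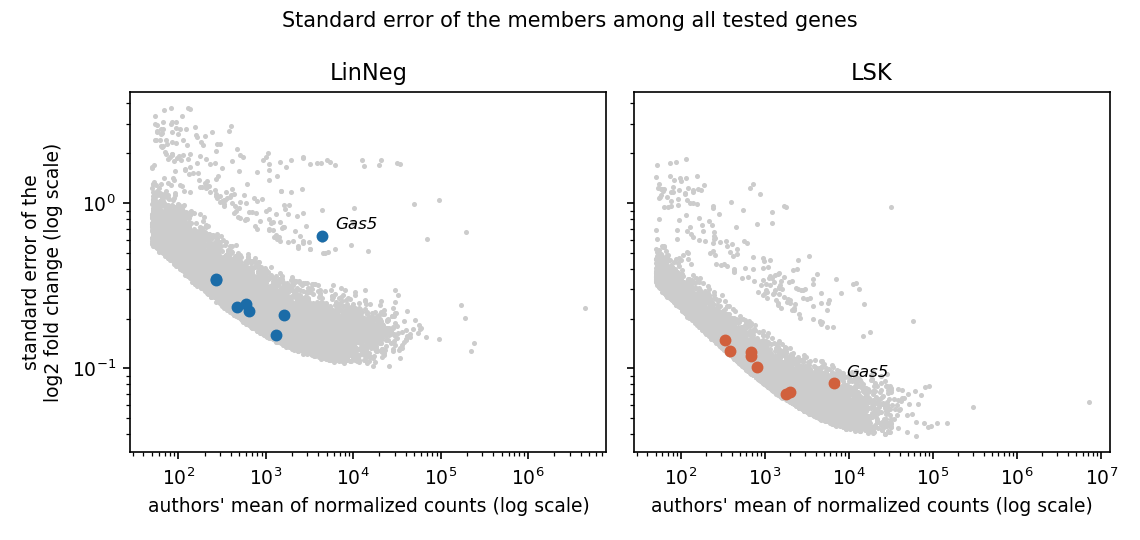
Standard error of the log2 fold change against the authors' mean of normalized counts, both on log scales, for tested genes with a mean of at least 50 (grey) and the members (coloured), in LinNeg and LSK. In LinNeg, Gas5 lies at 0.64, above the band that holds the other members. In LSK it lies at 0.08, where 93.9% of 623 genes of like mean had a smaller SE.

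Among the hosts of H/ACA box snoRNAs, Snhg3 had the largest change of the members in both populations. It carries the U17 snoRNAs (Snora73a and Snora73b), which serve in early cleavage of the ribosomal RNA precursor. Its derived mean was 290 under WT and 983 under KO in LinNeg, a 3.38-fold difference (log2 fold change 1.76, SE 0.22, adjusted p = 3.58e-14 in the authors' deposited table). Within LSK the Snhg3 means were 372 and 1255, again 3.38-fold (log2 fold change 1.75, SE 0.10, adjusted p = 2.89e-65 in the authors' deposited table). Of the tested genes, 10.5% had a larger log2 fold change than Snhg3 in LSK and 15.8% in LinNeg. By Wald statistic, which divides the change by its SE, 0.922% stood above it in LSK and 1.28% in LinNeg.

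Snhg12 carries 3 H/ACA box snoRNAs and the C/D box RNA Snord99. Its derived mean went from 250 to 692 in LinNeg (log2 fold change 1.47, SE 0.24, adjusted p = 6.28e-09 in the authors' deposited table). Within LSK it went from 519 to 848 (log2 fold change 0.71, SE 0.12, adjusted p = 7.96e-09 in the authors' deposited table).

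Snhg15, the host of Snora9, had derived means of 156 and 388 in LinNeg, and the authors' deposited table gave 1.32 (SE 0.34, adjusted p = 0.000563). In LSK they were 319 and 448, where the authors' deposited table gave 0.49 (SE 0.13, adjusted p = 0.000247), the smallest change of the 8 in that population. Snhg8, the host of Snora24, was the other member not called in LinNeg: derived means of 506 and 686 correspond to 0.44 (SE 0.24, adjusted p = 0.142) in the authors' deposited table. Within LSK Snhg8 rose from 535 to 841, at 0.65 (SE 0.12, adjusted p = 4.95e-07) in the authors' deposited table.

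**Figure D3:**
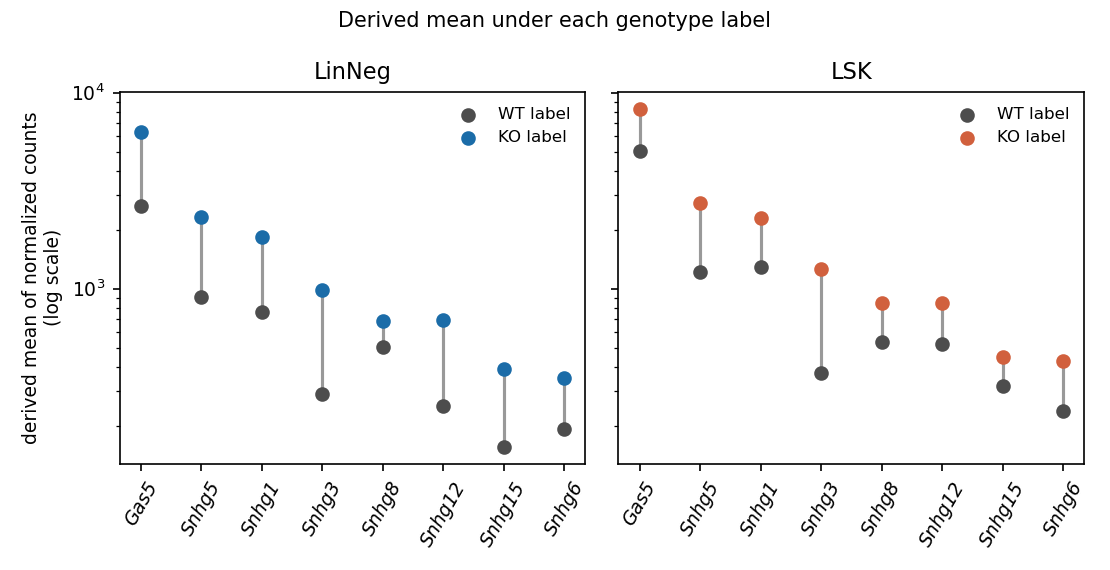
Derived mean of normalized counts (log scale) under the WT label (grey) and the KO label (coloured) for each host transcript in LinNeg and LSK, with a line joining the pair. The KO point is above the WT point in each pair, and the longest line in both panels is that of Snhg3, 290 to 983 in LinNeg and 372 to 1255 in LSK.

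Per length, Gas5 had the highest mean over both labels and Snhg5 came next. Dividing the authors' mean by the length of all annotated exons gave 1184 normalized counts per kb for Gas5 and 934 for Snhg5 in LinNeg, and 1773 and 1138 in LSK. At the low end in LinNeg stood Snhg6 at 236, Snhg15 at 200 and Snhg12 at 196 per kb. In LSK the same 3 stood at 289, 282 and 285 per kb. By derived means under the WT label in LinNeg the order differed: Gas5 stood at 698 per kb, Snhg8 at 593 and Snhg5 at 523. Under the KO label there Snhg5 stood at 1344 per kb, Snhg3 at 997 and Snhg8 at 804. In LSK the WT levels were 1348 for Gas5, 700 for Snhg5 and 627 for Snhg8. The length used joins the exons of all annotated models. It covers 100% of the span of Snhg12 and Snhg1 but 17.4% of Snhg3, so the order depends on the annotation. The spread of these levels between libraries was not tested, and the annotation the authors counted on is not given in the sources used here.

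The log2 fold change was smaller in LSK than in LinNeg for 7 of the 8 members, of which Snhg3 and Snhg6 turned sign when each table was recentred on its median gene. The difference passed the test for Snhg12 and Snhg1. The test divides the difference of the log2 fold changes, LSK minus LinNeg, by the root of the summed squared SEs. It was adjusted over 15735 genes, of which 31.9% were called in either direction and 14.5% as smaller in LSK. Both called members were smaller in LSK, and 2 of 8 lies between these shares. Whether that share differs from the background was not tested. Snhg12 differed by -0.76 (95% interval -1.28 to -0.24, adjusted p = 0.0162) and Snhg1 by -0.43 (-0.77 to -0.09, adjusted p = 0.0441). Snhg15 had the largest difference, -0.83 (-1.54 to -0.11), with an adjusted p of 0.0695. For Snhg3 the interval ran from -0.48 to 0.47, for Snhg5 from -0.63 to 0.24, for Snhg6 from -0.77 to 0.71 and for Gas5 from -1.81 to 0.70. Snhg8 was the 1 member with a larger effect in LSK (0.21, interval -0.32 to 0.75). Recentring ended the call for Snhg1 (-0.32, adjusted p = 0.156), took Snhg3 and Snhg6 to 0.11 and 0.08, and left Snhg12 called (-0.64, adjusted p = 0.0443).

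**Figure D4:**
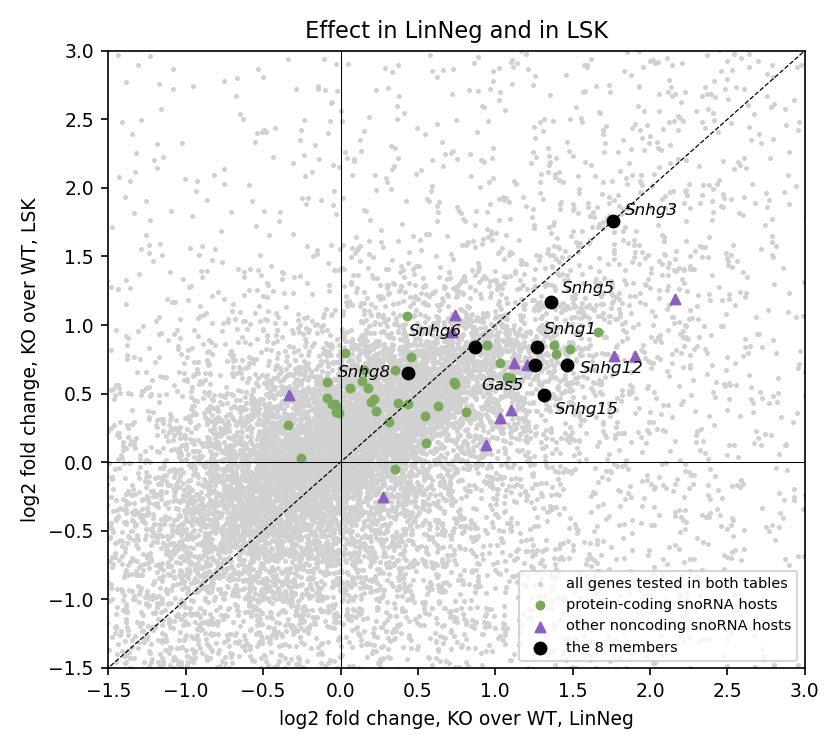
Log2 fold change of KO over WT in LSK against that in LinNeg for all genes tested in both tables (grey), protein-coding snoRNA hosts (green), other noncoding hosts (purple triangles) and the 8 members (black), with the dashed line where both are equal. The axes run from -1.5 to 3 and leave out 3726 of 15735 genes and 2 of the other noncoding hosts. Snhg3 lies on the line at 1.76 and 1.75, and Snhg12, Snhg15, Snhg1 and Gas5 lie below it.

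The 8 genes hold 28 annotated snoRNA loci on their own strand in GENCODE M21 (build mm10, as in the submitters' processing notes). Gas5 (ENSMUSG00000053332.13, chr1:161034422-161038539, plus strand) holds 9 and Snhg1 (ENSMUSG00000108414.1, chr19:8723475-8726443, plus strand) holds 8. Snhg12 (ENSMUSG00000086290.9, chr4:132308623-132311024, plus strand) holds 4. Snhg3 (ENSMUSG00000085241.7, chr4:132348014-132353686, minus strand) and Snhg5 (ENSMUSG00000097195.9, chr9:88521050-88522929, minus strand) hold 2 each. The other 3 hold 1 each, namely Snhg6 (ENSMUSG00000098234.7, chr1:9941959-9944118), Snhg8 (ENSMUSG00000104960.1, chr3:123507552-123508404) and Snhg15 (ENSMUSG00000085156.7, chr11:6525591-6528760), all on the minus strand.

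Exon and intron are hard to keep apart in counts of these genes. Of their 76 annotated transcript models, 38 are of the retained intron type, 20 of them in Gas5 and 14 in Snhg1. Exons of any model cover 91.3% of the span of Gas5, 100% of Snhg1, Snhg8 and Snhg12, and 17.4% of Snhg3. Of the 28 snoRNA loci, 26 touch an annotated exon of their host, but only 8 do once the retained intron models are set aside. A count over such exons can hold spliced host, host with introns and snoRNA fragments, and the share of each was not tested here.

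Neighbouring genes also touch the members. Snhg3 and Rcc1, which encodes the exchange factor of the GTPase Ran, share a strand and 5592 bases, with starts 81 bases apart. Rcc1 rose too, at 1.19 (SE 0.24, adjusted p = 3.50e-06) in LinNeg and 0.92 (SE 0.06, adjusted p = 3.10e-57) in LSK in the authors' deposited tables. The values of Snhg3 and Rcc1 are uncertain to the extent that reads were shared or set aside as ambiguous. Gas5 overlaps Zbtb37, a zinc finger gene on the opposite strand, by 428 bases, and whether the counts used strand is not given in the sources used here. Zbtb37 was at 0.15 (SE 0.27) in LinNeg and -0.28 (SE 0.14) in LSK in the authors' deposited tables, neither called. Slc3a2, the heavy chain of an amino acid transporter, starts 106 bases from Snhg1 on the opposite strand. It was at -0.29 (SE 0.14, adjusted p = 0.0827) in LinNeg and rose by 0.55 (SE 0.06, adjusted p = 9.83e-17) in LSK in the authors' deposited tables. Its difference between populations, 0.84 (adjusted p = 5.26e-07), has the opposite sign to that of Snhg1. Snhg6 overlaps Mcmdc2 on the opposite strand by 127 bases, and Mcmdc2 had authors' means of 20.66 and 10.51 and was not called in either table.

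Of the 28 hosted snoRNA loci, 8 had rows under their GENCODE symbol, and their means were far below those of the hosts. Many loci of Gas5 and Snhg1 carry placeholder symbols in GENCODE, and rows under other names were not looked for. Snora24, in Snhg8, was listed at 0 in both. Snord22 rose with its host Snhg1, at 2.0 (SE 0.60, adjusted p = 0.00339) in LinNeg and 0.73 (SE 0.30, adjusted p = 0.0252) in LSK in the authors' deposited tables. Within Snhg12, Snora16a rose in both populations, at 1.88 (SE 0.70, adjusted p = 0.0206) and 0.66 (SE 0.24, adjusted p = 0.0101) in the authors' deposited tables. The derived means of Snora16a were 24.2 and 88.7 in LinNeg and 93.4 and 148 in LSK. Snora61 and Snord99, also in Snhg12, rose in LSK at 1.51 (SE 0.54, adjusted p = 0.00939) and 1.28 (SE 0.37, adjusted p = 0.00125), and were at 2.10 (SE 1.55) and 0.39 (SE 1.20) without a call in LinNeg, in the authors' deposited tables. Snora44, in the same host, was at 2.26 (SE 1.65) in LinNeg and 0.71 (SE 0.51) in LSK in the authors' deposited tables, with no call. Snord47 in Gas5 and Snord87 in Snhg6 had authors' means between 3.74 and 13.57 and no call in either table. Of all GENCODE snoRNAs tested, 10 of 90 rose and none fell in LinNeg, and 17 rose and 4 fell of 97 in LSK. All 4 snoRNAs of Snhg12 lie wholly within exons of annotated Snhg12 models. Snord22 likewise lies wholly within exons of annotated Snhg1 models, and 46.8% of it does once the retained intron models are set aside. Reads there may have been counted for host or snoRNA, or set aside as ambiguous. Ambiguous reads held 0.689% of the LinNeg and 0.752% of the LSK total. How reads over a snoRNA were assigned is not given in the sources used here.

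The snoRNA sequences of Snhg12 and the C/D box RNA Snord22 of Snhg1 follow as GENCODE gives them (mm10, plus strand). They include all hosted RNAs found by symbol that had a call (Snora44 had none). Capitals mark the C box TGATGA and the D box CTGA of Snord99 and the ACA near the end of the H/ACA RNAs, where a search of the letters on this strand found them. Boxes were marked only where the C box stood in the first 20 bases together with the D box in the last 20, and ACA only in the last 8. Snora44 and Snord22 met neither condition and carry no capitals, which does not say that each box alone is absent.
Snora16a in Snhg12, chr4:132309464-132309600: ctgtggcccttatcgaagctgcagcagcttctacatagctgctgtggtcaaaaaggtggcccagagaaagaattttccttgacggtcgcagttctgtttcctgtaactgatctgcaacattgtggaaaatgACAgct
Snora44 in Snhg12, chr4:132309941-132310069: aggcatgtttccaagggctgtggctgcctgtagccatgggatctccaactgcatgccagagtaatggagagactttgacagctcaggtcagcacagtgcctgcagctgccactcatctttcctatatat
Snora61 in Snhg12, chr4:132310240-132310369: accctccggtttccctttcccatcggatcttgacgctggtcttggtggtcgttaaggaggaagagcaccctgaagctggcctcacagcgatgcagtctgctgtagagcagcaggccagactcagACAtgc
Snord99 in Snhg12, chr4:132310691-132310764: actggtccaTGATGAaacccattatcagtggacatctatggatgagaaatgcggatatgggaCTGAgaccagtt
Snord22 in Snhg1, chr19:8725866-8725991: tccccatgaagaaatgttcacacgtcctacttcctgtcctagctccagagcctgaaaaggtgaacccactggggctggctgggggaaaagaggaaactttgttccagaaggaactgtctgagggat

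The region around the annotated first base was read from RefSeq promoter windows (GRCm38.p6, the same build), which matched 7 of the 8 members, Gas5 with 2 starts. The 80 bases shown run from 45 before the first base to 35 from it onward. In capitals are the longest run of C and T that begins with C within 20 bases of the first base, and TATAAA or its reverse complement TTTATA.
Gas5, chr1:161034556-161034635, plus strand: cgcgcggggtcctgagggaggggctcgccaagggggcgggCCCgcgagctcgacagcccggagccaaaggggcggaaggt
Gas5, chr1:161035121-161035200, plus strand: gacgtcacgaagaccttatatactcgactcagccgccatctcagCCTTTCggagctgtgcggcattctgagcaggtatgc
Snhg1, chr19:8723442-8723521, plus strand: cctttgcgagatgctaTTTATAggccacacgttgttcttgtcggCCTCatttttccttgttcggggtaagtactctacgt
Snhg12, chr4:132308633-132308712, plus strand: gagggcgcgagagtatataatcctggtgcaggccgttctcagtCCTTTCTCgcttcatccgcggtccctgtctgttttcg
Snhg15, chr11:6528726-6528805, minus strand: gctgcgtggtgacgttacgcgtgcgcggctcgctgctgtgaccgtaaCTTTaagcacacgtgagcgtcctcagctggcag
Snhg3, chr4:132353652-132353731, minus strand: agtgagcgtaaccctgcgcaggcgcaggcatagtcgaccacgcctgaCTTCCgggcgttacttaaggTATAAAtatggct
Snhg5, chr9:88522863-88522942, minus strand: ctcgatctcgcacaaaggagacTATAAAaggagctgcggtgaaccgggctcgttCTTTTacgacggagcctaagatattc
Snhg8, chr3:123508302-123508381, minus strand: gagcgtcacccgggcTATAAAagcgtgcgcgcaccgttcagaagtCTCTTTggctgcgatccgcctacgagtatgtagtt

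Position 1 is the annotated first base and -1 the base before it. A C with at least 4 more pyrimidines stood exactly at position 1 in Snhg8 and in the second Gas5 window, hence in 2 of 8 windows against 2.51% of 32851 windows of all genes. In Snhg12 the longest run, CCTTTCTC, began at position -2. Within 20 bases of the first base, such a run was found in 5 of 8 windows and in 49.4% of all windows, so the looser search separates little. TATAAA on either strand was found once in each of 4 windows, beginning at -30 in Snhg8, -23 in Snhg5, -29 in Snhg1 (as TTTATA) and 23 in Snhg3, against 13.6% of all windows of 300 bases. Other short motifs were searched on both strands of the same windows. The GC box GGGCGG was in 6 windows (35.7% of all) and CCAAT in 3 (37.4%). The cyclic AMP response element TGACGTCA was in 2, a Gas5 window and that of Snhg15 (1.79% of all). The E-box CACGTG, which MYC binds, was in the Snhg15 window alone (7.15% of all). The ETS site CCGGAAG was in 1 window, that of Snhg3 (8.86% of all). The GATA site AGATAA was in none (11.2% of all). Annotated first bases can be some bases off the true start, and a match is no evidence of use.

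Of the other noncoding hosts of snoRNAs, 8 of 15 tested rose in LinNeg and 10 of 14 in LSK, and none fell (median log2 fold change 1.03 and 0.75). In GENCODE M21 no snoRNA model lay inside Snhg10 or Snhg20 on their strand. Snhg4 and Snhg7 were not found there by symbol, so their hosted snoRNAs were not checked. Snhg4 rose at 1.77 (SE 0.26) in LinNeg and 0.77 (SE 0.10) in LSK in the authors' deposited tables, with a difference of -1.0 (adjusted p = 0.00176). Dancr, the host of Snora26, rose at 1.91 (SE 0.44) and 0.77 (SE 0.17), Zfas1 at 0.74 (SE 0.22) and 1.08 (SE 0.10), and Epb41l4aos at 1.12 (SE 0.36) and 0.73 (SE 0.15) in the authors' deposited tables. Rian, an imprinted host of a large snoRNA cluster, rose at 2.67 (SE 0.76) and 3.53 (SE 0.71) in the authors' deposited tables, from derived WT means of 24.3 and 3.6. Snhg17 rose at 1.03 (SE 0.21) and 0.32 (SE 0.10), and 1810032O08Rik, the older symbol of Snhg16, at 1.1 (SE 0.36) and 0.38 (SE 0.11) in the authors' deposited tables.

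Other hosts moved in 1 population or in neither. Snhg7 rose in LinNeg at 0.94 (SE 0.27) and was at 0.13 (SE 0.09) without a call in LSK in the authors' deposited tables, and its difference passed the test (-0.81, adjusted p = 0.0171). The host 2410006H16Rik was at -0.33 (SE 0.20) without a call in LinNeg and rose at 0.49 (SE 0.09) in LSK in the authors' deposited tables (difference 0.82, adjusted p = 0.00128). Snhg10 rose in LSK at 0.95 (SE 0.36), and was at 0.72 (SE 0.65) in LinNeg in the authors' deposited tables. Snhg9 was called in LSK with a derived WT mean of 0.176, so its fitted fold is not a measured ratio. Snhg20, Snhg11, Snhg14 and Snhg18 had no call in either table, and Snhg18 had no adjusted p in LSK.

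Long noncoding RNAs at large moved both ways. Of those in GENCODE other than the members, 88 of 726 tested rose and 55 fell in LinNeg (median 0.27). In LSK 72 of 700 rose and 184 fell (median -0.50). Of 589 tested in both, 29 rose in both. The other noncoding snoRNA hosts were not taken out of this set, and no minimum mean was asked of it.

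**Figure D5:**
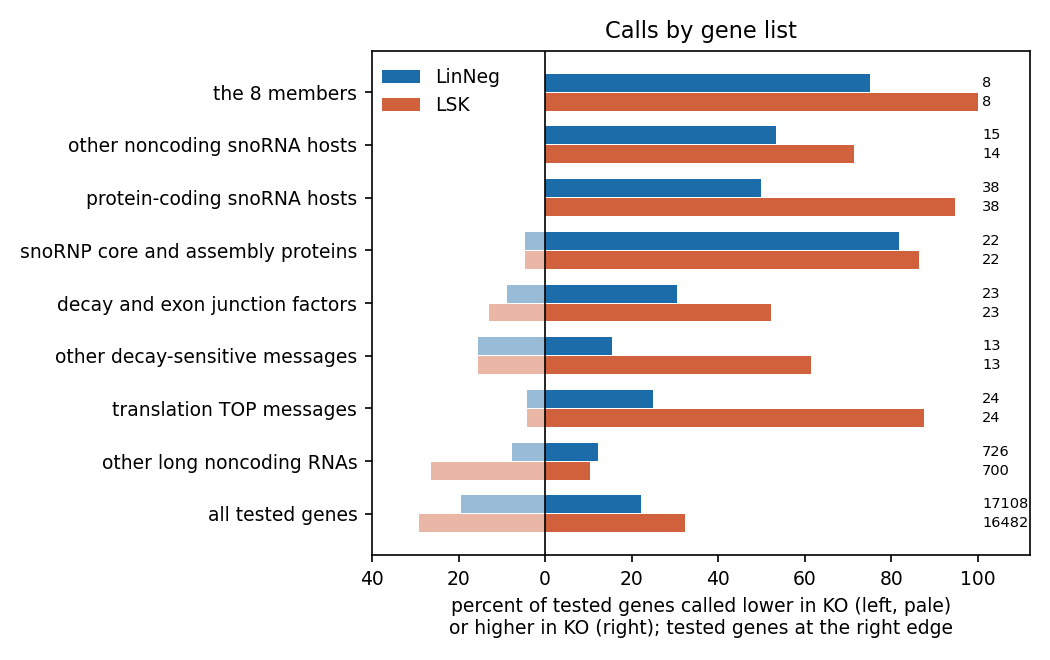
Percent of tested genes called higher (right, full colour) or lower (left, pale) under the KO label in LinNeg (blue) and LSK (orange) for each gene list, with the number tested at the right edge. The members reach 75% and 100% higher with none lower, beside 22.1% and 32.4% of all tested genes.

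Protein-coding hosts, whose introns also carry snoRNAs, rose in 19 of 38 in LinNeg and 36 of 38 in LSK, and none fell (median 0.35 and 0.50). The chaperone Hspa8 rose at 0.74 (SE 0.18) and 0.57 (SE 0.05), while the elongation factor Eef2 was at 0.23 (SE 0.15) without a call and then rose at 0.37 (SE 0.05) in the authors' deposited tables. Rpsa, a ribosomal protein, was at 0.20 (SE 0.15) without a call in LinNeg and rose at 0.44 (SE 0.07) in LSK in the authors' deposited tables. Split after the values were seen, the 18 hosts that encode ribosomal proteins had 2 rises in LinNeg, Rpl7a and Rpl12, and 18 in LSK, and the 20 other hosts had 17 and 18. Translation messages with TOP tracts, a list that shares genes with the hosts, rose in 6 of 24 in LinNeg and 21 of 24 in LSK, and Vim, an intermediate filament gene, fell in both (medians 0.16 and 0.38). Among these Eef1a1 was at -0.10 (SE 0.14) and Pabpc1 at -0.27 (SE 0.16) without a call in LinNeg, and both rose in LSK, at 0.18 (SE 0.06) and 0.17 (SE 0.05), in the authors' deposited tables.

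Proteins that bind and assemble snoRNAs rose with the hosts: 18 of 22 rose in LinNeg and 19 of 22 in LSK (median 0.93 and 0.68). Nolc1, a nucleolar and Cajal body chaperone of snoRNA particles, rose at 1.82 (SE 0.25) and 1.16 (SE 0.07) in the authors' deposited tables. Nop56, a core protein of C/D particles and itself a snoRNA host, rose at 1.1 (SE 0.18) and 0.61 (SE 0.05) in the authors' deposited tables. The exporter Xpo1 rose at 0.40 (SE 0.15) and 0.52 (SE 0.04) in the authors' deposited tables. The 1 gene that fell, Pih1d1 of an assembly complex, was at -0.52 (SE 0.16) and -0.31 (SE 0.07) in the authors' deposited tables.

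Factors of nonsense-mediated decay and of the exon junction complex moved in both directions. Of 23, 7 rose and 2 fell in LinNeg, and 12 rose and 3 fell in LSK (medians 0.10 and 0.17). The termination factors Etf1 and Gspt1 rose, Etf1 at 0.69 (SE 0.18) and 0.97 (SE 0.05), and Gspt1 at 0.97 (SE 0.18) and 0.57 (SE 0.05), in the authors' deposited tables. Smg1, the kinase that acts on Upf1, was at -0.03 (SE 0.19) without a call in LinNeg and fell at -0.43 (SE 0.05) in LSK in the authors' deposited tables. The nuclease Smg6 fell at -0.39 (SE 0.15) and -0.42 (SE 0.06), and the decapping enzyme Dcp2 at -0.55 (SE 0.15) and -0.13 (SE 0.06), in the authors' deposited tables.

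Other messages known to be sensitive to this decay rose in 2 of 13 and fell in 2 of 13 in LinNeg, and rose in 8 and fell in 2 in LSK (medians 0.09 and 0.66). Atf4, the transcription factor of the integrated stress response, rose at 0.71 (SE 0.16) and 0.67 (SE 0.05) in the authors' deposited tables. Gadd45a was at 0.44 (SE 0.26) without a call in LinNeg and rose at 1.45 (SE 0.14) in LSK, and Tbl2 was at 0.09 (SE 0.16) and rose at 0.39 (SE 0.07), in the authors' deposited tables. The 2 that fell in LinNeg were Chac1 at -1.16 (SE 0.29) and Map3k14 at -1.08 (SE 0.27), and the 2 in LSK were Map3k14 at -1.73 (SE 0.14) and Trib3 at -0.82 (SE 0.31), in the authors' deposited tables. Chac1 rose in LSK, at 2.58 (SE 0.63) in the authors' deposited table.

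Markers of cell types moved in the same comparisons. Erythroid genes rose in 9 of 10 tested in LinNeg and 10 of 10 in LSK, with summed derived means of 22609 under WT and 110710 under KO in LinNeg, and 29122 and 135132 in LSK. Of the 14 on that list, the globins Hba-a1, Hba-a2, Hbb-bs and Hbb-bt were listed at 0 in LinNeg, and Hbb-bs and Hbb-bt in LSK. Neutrophil granule genes fell in 8 of 10 in LinNeg (sums 87568 and 4722) and rose in 10 of 11 in LSK (61193 and 172443). Monocyte and dendritic genes fell in 10 of 10 in LinNeg (77188 and 6644), and in LSK 4 rose and 2 fell of 9 (6937 and 8146). The median log2 fold change of the monocyte and dendritic list in LSK was -0.43, and 4 of 9 were positive. Stem cell genes had 4 rises and 6 falls of 14 in LinNeg (16469 and 10466) and 1 rise and 12 falls of 14 in LSK (114986 and 32501). Flt3 (derived means 4842 and 53.3) and Cd34 (3201 and 752) weigh heavily in that LinNeg sum. The median log2 fold change of the stem cell list in LinNeg was 0.50, and 8 of 14 were positive. Lymphoid genes had 1 rise and 3 falls of 11 in LinNeg (8008 and 4386) and 2 falls of 12 in LSK (8723 and 3494). Dntt weighs heavily in both lymphoid sums. Its derived means were 5313 and 56.3 in LSK, and 3929 and 1355 in LinNeg without a call (SE 1.87). The median log2 fold change of the lymphoid list was -0.37 in LinNeg and 0.13 in LSK, where 9 of 12 were positive. Proliferation genes rose in 5 and fell in 1 of 13 in LinNeg (144400 and 174236) and rose in 12 of 13 in LSK (137159 and 175073). The part of these shifts in the rise of the host transcripts was not tested.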

How the data were processed

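RNA of 12 libraries was compared in 2 tables that the authors deposited, 1 for LinNeg and 1 for LSK, each setting KO against WT. The tools named in the submitters' processing notes are HISAT2, SAMtools 1.10, StringTie and DESeq2, with build mm10, and the counting program is not given in the sources used here. Per the file headers, the deposited columns are a mean of normalized counts (a signal), a log2 fold change with its SE on the log2 scale, a Wald score, and a p-value with its adjusted p-value. The tests had the authors' DESeq2 results as their base, since no value per library was used. Log2 fold changes were recomputed as score times SE, because the deposited ones are rounded, by at most 0.005. Of 24542 rows in each table, 5 that name no gene (38.7% of the LinNeg and 27.2% of the LSK total, ambiguous reads included) and 4 with repeated symbols were left out.

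The difference between populations was tested two-sided with a normal test and Benjamini-Hochberg adjustment. Its SEs rest on 3 libraries a side, and whether the normal reference holds for these data was not tested. Lists are described by counts and medians only. The members and lists were chosen with earlier results of these data known. Named genes are U2af1, the members, the other noncoding hosts and the 3 genes of highest LinNeg mean of each other list. Markers are given as sums, and of their top 3 genes only Flt3, Cd34 and Dntt are named. Also named are genes that overlap a member or start within 2000 bases of it, hosted snoRNAs with rows, and the 4 genes nearest to the members' median pair. Kit, Ly6a, Rpl7a, Rpl12, Vim, Pih1d1, Smg6, Dcp2, Chac1, Map3k14 and Trib3 were named after their values were seen. Alternatives changed the threshold, the set of genes adjusted over, the centring, the minimum mean, the fold and the SE. Software was matplotlib 3.10.9, scipy 1.17.1, numpy 2.4.6, pandas 2.3.3 and Python 3.11.15.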

Additional observations from a re-analysis of the deposited data

Results flagged for a closer look

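The change of Snhg12 under the KO label was smaller in LSK than in LinNeg, with a difference of log2 fold changes of -0.76 that passed the test of the difference (adjusted p = 0.0162). The same held for Snhg1, with a difference of -0.43 (adjusted p = 0.0441). The populations also differ in the label BMT, and population and that label cannot be told apart.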

How the results depend on the processing

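The count of members that rose in LinNeg was 6 and became 5 with an adjusted threshold of 0.01 or with recentring, each time without Snhg6, and stayed at 6 under the other 3 alternatives. In LSK it was 8 and became 7 when a change of at least 1.5-fold was asked. The count of members whose effect differed between the populations was 2, and became 0 with a threshold of 0.01, 1 with recentring and 0 with SEs multiplied by 1.5. Recentring turned the sign of the uncalled differences of Snhg3 and Snhg6, to 0.11 and 0.08. Of 72 member values under alternatives, 66 kept their direction and their side of the threshold. Only recentring could change a direction, since the other alternatives left the value itself as it was. Larger SEs also could not bring a call where there was none. No paired analysis was possible because the deposited columns hold comparisons and no value per library, and leaving out each replicate was not run for the same reason. Depth per library is unknown.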

Other observations

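Of the 10417 genes whose mean reached 100 in each table, those nearest to the members' pair of median log2 fold changes (1.29 in LinNeg, 0.77 in LSK) were Elac2, Gemin6, Clstn1 and Gemin5. Elac2, a nuclease that trims the ends of tRNA precursors, rose at 1.29 (SE 0.20) and 0.78 (SE 0.06) in the authors' deposited tables. Gemin6 rose at 1.30 (SE 0.31) and 0.78 (SE 0.12), and Gemin5 at 1.32 (SE 0.22) and 0.79 (SE 0.06), in the authors' deposited tables. Both are subunits of the complex that assembles spliceosomal small nuclear particles. Clstn1, a membrane protein, rose at 1.30 (SE 0.21) and 0.75 (SE 0.07) in the authors' deposited tables. The likeness is over 2 values per gene, one from each table.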
